A study of Mus musculus with 4 samples.

Results

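The genes described here are 9 of the 31053 genes in the UMI matrices: *Pglyrp1*, *Cxcl15*, *Defb1*, *Lcn2*, *Ltf*, *Pigr*, *Wfdc2*, *Nlrp10* and *Slpi*, grouped as antimicrobial defense genes of epithelium. They were chosen by name, with their levels in clusters of these cells already known, so levels by cluster are given as a description and without a test. All mice were P2-*Runx1*:RFP reporters of the ICR (CD-1) strain, in which RFP is driven by the proximal P2 promoter of *Runx1*. The reporter therefore marks activity of that promoter and not of the distal one. EPCAM+ cells from adult prostates (more than 8 weeks of age) were sorted into RFP+ and RFP- fractions by lobe, anterior (AP), ventral (VP) or dorsolateral (DLP), and each fraction carried its own MULTI-seq lipid barcode before droplet-based scRNA-seq. Runs 1 and 2 held cells of intact mice and of mice castrated more than 4 weeks earlier, and run 3 held cells of intact mice. Each treatment in each run was a pool of several mice. Lobes of castrated mice were pooled in run 1 and kept apart in run 2, and the barcode of intact DLP RFP+ cells failed in runs 1 and 2. A separate library held epithelium of urogenital sinus explants, removed at embryonic day 15.5 and cultured with 10 µM dihydrotestosterone, at days 0, 1, 3 and 6 of culture.

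Mucosal epithelium defends itself with secreted proteins that bind or disrupt microbes, that withhold iron from them, or that carry antibodies across the cell. *Pglyrp1* encodes a peptidoglycan recognition protein that binds bacterial cell walls, *Defb1* a beta-defensin, *Lcn2* a lipocalin that captures bacterial iron carriers, and *Ltf* lactoferrin, which binds iron itself. *Pigr* encodes the receptor that transports polymeric immunoglobulin through epithelial cells into secretions. *Wfdc2* and *Slpi* encode small secreted proteins of the whey acidic protein family, and that of *Slpi* inhibits leukocyte proteases. *Cxcl15* encodes a chemokine of mouse epithelium that attracts neutrophils, and *Nlrp10* a cytosolic protein of the NOD-like receptor family. The mouse prostate is a secretory gland in which luminal cells of each lobe make their own secretions and basal cells lie beneath them.

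The libraries held between 35051876 and 121090404 UMIs, and 824, 2194 and 1673 adult cells and 5198 explant cells were assigned to 1 population, with median depths of 9750.0 to 14784.5 UMIs. Adult epithelial cells were clustered without the 9 genes and named from markers of the study: 1890 basal-like cells, 571 Lum-A-like cells, 486 cells named Lum-D-like, 468 named Lum-E/F-like, 405 named Lum-B-like and 76 named Lum-C-like, with 59 cells in an unnamed cluster. In run 3, the 73 cells that fell in an endothelial-like cluster had summed basal markers (*Krt5*, *Krt14*, *Krt15*, *Trp63*) of 8319 CPM (UMIs of a gene per 1000000 UMIs of the cells summed) and endothelial markers of 42.8, so that name did not hold for them; they were kept out of the epithelial sums, and counting them as basal changed no call below. *Runx1* itself, a check of the gate, was at 101, 148 and 117 CPM in luminal AP RFP+ cells of runs 1, 2 and 3 and at 19.9, 17.0 and 4.32 in AP RFP- cells. In VP luminal cells the ranges were 15.3 to 20.8 in the RFP+ and 4.08 to 10.8 in the RFP- fraction. Summed neutrophil markers (*S100a8*, *S100a9*, *Retnlg*, *Csf3r*, *Cxcr2*) were between 0 and 2.09 CPM in intact luminal sums, and macrophage markers between 0 and 1.42. At most 2 cell barcodes were shared between any pair of libraries.

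Promoters are shown for *Pglyrp1*, *Cxcl15* and *Wfdc2*, which were highest in Lum-D-like cells, and for *Lcn2*, which was highest in basal-like cells. They were chosen because the sort was made on the activity of a *Runx1* promoter, and because *Wfdc2* and *Cxcl15* were also measured in explants. The promoter of *Ltf*, also highest in Lum-D-like cells, was searched and is not printed. They are RefSeq sequences of GRCm38.p6, 250 bases before to 50 after the transcription start, written 5′ to 3′ on the strand of the gene, and capitals mark the motif found by the search described after them.
*Pglyrp1* (chr7:18884440-18884739, plus strand; capitals, an NF-kB motif read on the opposite strand): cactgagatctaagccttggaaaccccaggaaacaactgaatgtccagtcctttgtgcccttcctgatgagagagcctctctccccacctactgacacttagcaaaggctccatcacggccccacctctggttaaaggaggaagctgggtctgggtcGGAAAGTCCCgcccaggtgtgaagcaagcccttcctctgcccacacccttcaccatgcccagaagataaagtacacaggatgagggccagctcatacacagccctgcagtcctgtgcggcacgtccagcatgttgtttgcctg
*Cxcl15* (chr5:90794284-90794583, plus strand; capitals, a TATA box): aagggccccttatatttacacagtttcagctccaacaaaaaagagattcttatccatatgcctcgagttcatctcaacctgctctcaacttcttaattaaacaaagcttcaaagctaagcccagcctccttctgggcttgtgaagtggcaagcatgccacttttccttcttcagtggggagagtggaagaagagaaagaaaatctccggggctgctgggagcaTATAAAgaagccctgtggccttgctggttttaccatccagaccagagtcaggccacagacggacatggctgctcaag
*Wfdc2* (chr2:164562465-164562764, plus strand; no motif of the search): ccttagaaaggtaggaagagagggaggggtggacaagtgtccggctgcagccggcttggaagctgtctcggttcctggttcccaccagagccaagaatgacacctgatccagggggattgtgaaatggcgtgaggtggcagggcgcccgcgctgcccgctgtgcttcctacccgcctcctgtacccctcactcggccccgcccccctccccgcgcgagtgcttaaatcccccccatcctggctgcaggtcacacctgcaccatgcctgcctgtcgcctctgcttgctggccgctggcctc
*Lcn2* (chr2:32387690-32387989, minus strand; capitals, a C/EBP motif): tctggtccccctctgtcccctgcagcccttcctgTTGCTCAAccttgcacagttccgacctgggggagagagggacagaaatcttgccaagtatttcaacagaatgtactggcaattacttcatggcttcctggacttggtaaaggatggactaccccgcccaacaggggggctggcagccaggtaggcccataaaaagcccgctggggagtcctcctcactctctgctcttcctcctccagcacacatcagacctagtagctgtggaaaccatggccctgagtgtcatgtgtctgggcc
The search covered 7 members and both strands. TGTGGT, the core of the RUNX motif, occurred in 1 of them (*Ltf*) and in 16.8% of all 32851 promoters of the same length. GGGA and TTTCC with any 1 base between them, an NF-kB motif, occurred in 1 (*Pglyrp1*) and in 0.411% of all promoters. TTGCNNAA, a C/EBP motif, occurred in 3 (*Lcn2*, *Slpi* and *Ltf*) against 10.8%, and TATAAA in 1 (*Cxcl15*) against 13.6%. These matches describe letters and not bound sites.

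In the GENCODE annotation of GRCm38, *Pglyrp1* (chr7:18871331-18890459, plus strand, 3 exons in its longest transcript) and *Nlrp10* (chr7:108921852-108930178, minus strand, 3 exons) share chromosome 7. *Lcn2* (chr2:32384633-32388252, minus strand, 6 exons), *Slpi* (chr2:164354070-164389095, minus strand, 4 exons) and *Wfdc2* (chr2:164562413-164568510, plus strand, 5 exons) lie on chromosome 2, the last pair 173317 bases apart. *Cxcl15* is on chromosome 5 (chr5:90794534-90803067, plus strand, 4 exons) and *Pigr* on chromosome 1 (chr1:130826684-130852249, plus strand, 11 exons). *Ltf* is on chromosome 9 (chr9:111019271-111042767, plus strand, 17 exons) and *Defb1* on chromosome 8 (chr8:21776599-21795185, plus strand, 2 exons). The counts come from the ends of polyadenylated transcripts and are not divided by length, so levels are compared between cells and not between genes.

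Among 5 named epithelial clusters of intact mice (basal-like and Lum-A to Lum-D-like), 8 of the 9 genes fell into distinct patterns and *Slpi* was nearly absent. Of these 5, *Pglyrp1*, *Cxcl15*, *Wfdc2*, *Nlrp10* and *Ltf* were highest in Lum-D-like cells, *Defb1* in Lum-C-like cells, *Lcn2* in basal-like cells and *Pigr* in Lum-A-like cells. In Lum-D-like cells of runs 1, 2 and 3, *Pglyrp1* was at 649, 558 and 387 CPM, against a mean of at most 4.59 in the Lum-A, Lum-B, Lum-C and basal-like cells. *Wfdc2* was at 1370, 1989 and 1346 there, and next among the 5 at 50.9, 43.1 and 38.1 in basal-like cells. *Cxcl15* was at 101, 135 and 140, and next among the 5 at a mean of 7.10 in basal-like cells. The Lum-D-like values of these 3 genes lay above every value of the other 4 clusters. *Nlrp10* had a second site of expression. Over all lobes it was at 254, 216 and 223 in Lum-D-like cells and at 49.8, 59.7 and 160 in Lum-B-like cells, also without overlap. This separation held only with the lobes pooled. Lum-B-like cells of DLP RFP- were at 317, 336.5 and 343, above the Lum-D-like values, and those of AP RFP- at 16.1, 5.53 and 3.01. *Ltf* was at 55.3, 58.0 and 2.89 in Lum-D-like cells and had a mean of at most 0.142 in the other 4 clusters. In run 2, 68.3% of those *Ltf* UMIs came from 1 cell. Outside these clusters, the unnamed epithelial cluster held 2 of these genes at high levels: *Wfdc2* was at 2504 in its 13 cells of run 2 and at 222 in its 36 cells of run 3, and *Cxcl15* at a mean of 51.5 over both runs. *Lcn2* (833) and *Ltf* (85.1) were also high in 13 cells of run 3 in a mesonephric-like cluster, in which 73.2% and 91.7% of the UMIs came from 1 cell. Those 13 cells held hematopoietic markers at a summed 21226 CPM and *Epcam* at 1166. The marker score of their cluster was nevertheless highest for mesonephric markers (3.75) and next for epithelial ones (0.265). The sum was not split by marker, so it does not name these cells hematopoietic.

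**Figure D1:**
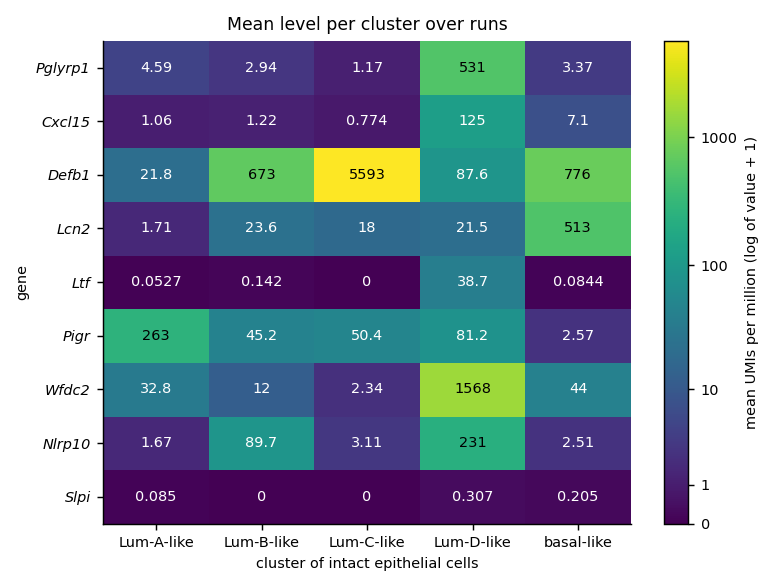
Mean level of each gene in 5 clusters of intact epithelial cells, over the runs that held at least 10 cells of the cluster (3 runs, 2 for Lum-C-like). Rows are genes, columns clusters, the colour is the logarithm of CPM plus 1 and the printed number the mean itself; *Wfdc2* in Lum-D-like cells (1568) and *Defb1* in Lum-C-like cells (5593) are the highest of their rows.

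*Defb1* was expressed in both luminal and basal cells. It was at 4463 and 6723 CPM in Lum-C-like cells of the 2 runs that held at least 10 of them. Basal-like cells were at 903, 754 and 672 and Lum-B-like cells at 427, 750 and 841, and these ranges overlapped. Lum-D-like cells had a mean of 87.6 and Lum-A-like cells of 21.8. *Lcn2* was at 774, 391 and 375 in basal-like cells and had a mean of at most 23.6 in every luminal cluster. *Pigr* was in contrast luminal: 272, 240 and 277 in Lum-A-like cells, 95.6, 81.1 and 67.0 in Lum-D-like cells and a mean of 2.57 in basal-like cells. Lum-C-like cells had a mean of 50.4 and Lum-B-like cells of 45.2.

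*Slpi* had a mean of at most 0.307 CPM in each of the 5 named epithelial clusters and 1 UMI in the unnamed one (3.94 CPM in run 2, 0 in run 3), with no more than 1 UMI in any intact luminal sum of a lobe and gate. Its highest intact value over whole clusters was 36.5 CPM in hematopoietic-like cells of run 1, where 43.8% of the UMIs came from 1 of 46 cells, and it was at 1.17 in those of run 2. At these counts *Slpi* could not be described as an epithelial gene in intact mice. *Pglyrp1* was also found in hematopoietic-like cells, at 98.2, 30.1 and 12.7 CPM in runs 1, 2 and 3. The name did not hold for the 68 cells of run 3, whose summed hematopoietic markers were at 346 CPM and basal markers at 4219, against 17518 to 19101 for hematopoietic markers in the other runs.

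The share of cells with a UMI was compared after each cell had been thinned to 5000 UMIs. Among 413 Lum-D-like cells (median 11120 UMIs before thinning, 37 shallower cells left out), 80.6% had a *Pglyrp1* UMI, against 1.04% of 1438 basal-like cells (median 9082, 137 left out). Unthinned, these shares were 87.3% and 2.10%. *Wfdc2* was detected in 78.0% of Lum-D-like and 16.6% of basal-like cells, *Nlrp10* in 56.7% and 0.417%, and *Cxcl15* in 33.9% and 2.71%. Not every Lum-D-like cell thus had a UMI of each gene at this depth. *Lcn2* was detected in 77.3% of basal-like cells and in 1.37% of 510 Lum-A-like cells, whose median was 48140 UMIs. *Defb1* was detected in 98.6% of 72 Lum-C-like, 86.4% of basal-like and 6.47% of Lum-A-like cells. *Pigr* was detected in 42.2% of Lum-A-like cells and 0.765% of basal-like cells, and the source of the few UMIs in basal-like cells was not tested.

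**Figure D2:**
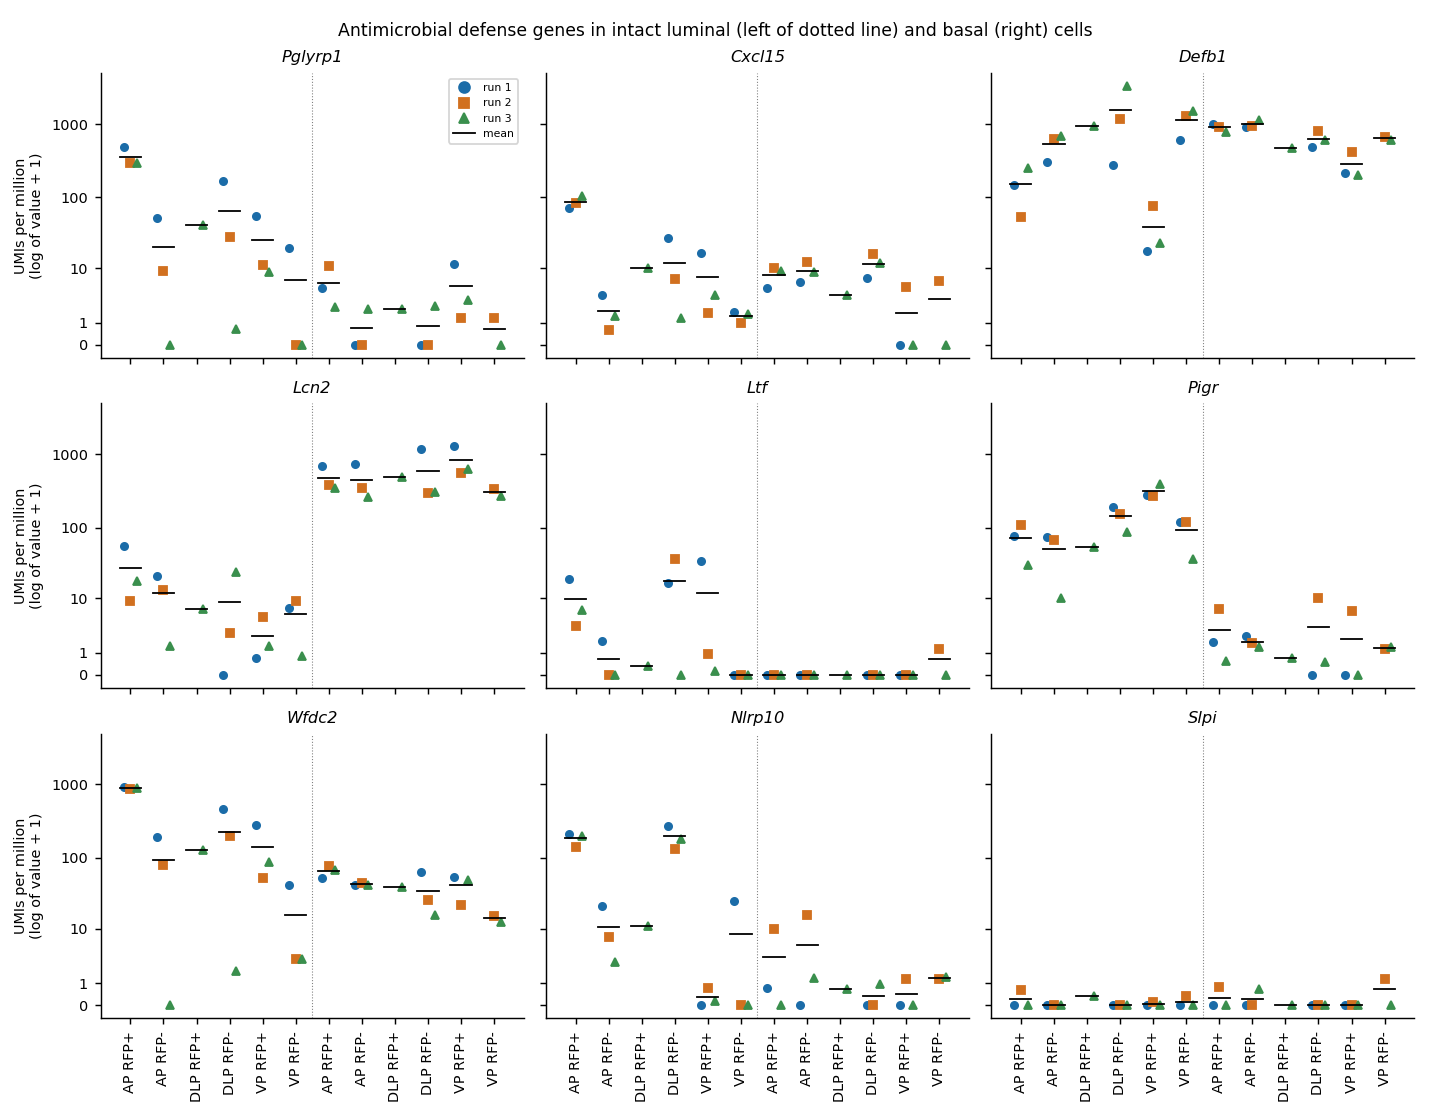
Level of each gene (vertical axis, CPM on a logarithmic scale of the value plus 1) in every sorted population of intact mice. Points are runs, the bar is their mean, luminal sums stand left of the dotted line and basal sums right of it; AP RFP+ luminal cells are highest for *Wfdc2* (869 to 910) and *Cxcl15* (72.4 to 103).

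Sums of luminal cells per run, lobe and gate took in all named luminal clusters together, and the unnamed cluster was left out. The shares of these clusters differed between the gates, as given below. In AP RFP+ luminal cells of runs 1, 2 and 3, *Pglyrp1* was at 490, 291 and 295 CPM, and in AP RFP- cells at 52.4, 8.92 and 0 (0 UMIs allow up to 4.33). *Wfdc2* was at 910, 869 and 890 in the RFP+ and at 195, 80.5 and 0 in the RFP- fraction. *Cxcl15* was at 72.4, 83.9 and 103 against 3.74, 0.575 and 1.44, and *Nlrp10* at 215, 141 and 201 against 21.2, 7.48 and 2.88. For these 4 genes each AP RFP+ sum was above each AP RFP- sum. The share of all genes separated in this way is not given here, so nothing is read from that number of genes. *Defb1* went the other way, at 149, 53.5 and 254 in RFP+ and 307, 622 and 695 in RFP- cells, again without overlap. *Pigr* (77.6, 108 and 30.5 against 73.6, 66.7 and 10.1) and *Lcn2* (55.4, 9.13 and 18.0 against 21.2, 13.2 and 1.44) overlapped between the gates. *Ltf* was at 18.9, 3.65 and 6.55 against 1.87, 0 and 0. Summed basal markers were at 1136 to 2884 CPM in AP RFP+ and at 87.9 to 822 in AP RFP- luminal sums, and their part in these values was not tested.

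In edgeR's fit of all intact luminal sums, AP RFP+ minus RFP- log2 fold changes were 5.56 ± 0.84 (SE) for *Cxcl15*, 3.95 ± 1.11 for *Pglyrp1*, 3.93 ± 0.67 for *Nlrp10*, 3.18 ± 1.19 for *Wfdc2* and -2.01 ± 0.79 for *Defb1*. Of the 9 members, 8 passed the filter on low counts in luminal sums and *Slpi* did not, and 3 of the 8 (*Cxcl15*, *Pglyrp1* and *Nlrp10*) were past the threshold of an adjusted p of 0.05, beside 23.2% of all 10483 genes tested. This contrast was among the results known when the genes were chosen, and nothing is read from that count. Populations of 1 run come from the same pool of mice, and with run as a block *Wfdc2* and *Defb1* passed as well, which made 5. *Pglyrp1* was not past it in DESeq2, without run 2 or without run 3. Lum-D-like cells were 85.0%, 80.8% and 88.9% of the luminal AP RFP+ cells of the 3 runs and at most 6.33% of the AP RFP- cells, which were mostly Lum-B-like. Without Lum-D-like cells 0 of the 7 members tested passed the threshold, beside 14 of all 9897 genes, so calls were rare in that fit. *Cxcl15* did not pass the filter on low counts there. The log2 fold changes of *Pglyrp1*, *Nlrp10* and *Wfdc2* were 2.89, 2.09 and 1.19.

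In the ventral lobe *Defb1* was the member that passed the test. It was at 17.8, 77.1 and 23.3 CPM in VP RFP+ luminal cells and at 608, 1292 and 1525 in VP RFP- cells of runs 1, 2 and 3. Each RFP+ sum was below each RFP- sum, and the log2 fold change was -4.85 ± 0.89 (edgeR's quasi-likelihood test with Benjamini-Hochberg adjustment, adjusted p = 0.0268). That made 1 of 8 members tested, beside 0.305% of all genes. The result came with a difference in the cells: Lum-C-like cells were 30.0%, 30.3% and 33.3% of VP RFP- luminal cells and at most 1.96% of VP RFP+ cells. Without Lum-C-like cells *Defb1* was no longer past the threshold, nor was it without run 2 or without run 3. In these fits 0 of 10536, 0 of 10216 and 1 of 9894 genes were called, so the lost call is not particular to *Defb1*. The part of Lum-C-like cells in the difference was not tested.

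*Pigr* was at 275, 268 and 396 in VP RFP+ and at 121, 120 and 36.7 in VP RFP- luminal cells, without overlap. Its log2 fold change of 1.87 ± 0.54 did not pass in edgeR's fit (adjusted p = 0.317), and it did with run as a block (2.11 ± 0.41, edgeR adjusted p = 0.0191, with a range of 0.0003 to 1 over its alternatives). The difference was also seen within Lum-A-like cells, where VP RFP+ cells were at 265, 271 and 392 and VP RFP- cells at 147 and 43.1 in runs 2 and 3. *Pglyrp1* (55.8, 11.2 and 8.82 in VP RFP+ against 19.8, 0 and 0 in VP RFP- cells), *Cxcl15* and *Wfdc2* were higher in the RFP+ fraction in 3 of 3 runs, and none of the 3 passed. The log2 fold changes of the last pair were 2.26 ± 1.14 and 3.68 ± 1.40. In run 1, 96.0% of the *Wfdc2* UMIs and 90.9% of the *Pglyrp1* UMIs of the 10 VP RFP- cells came from 1 cell. *Ltf* was at 34.5, 0.921 and 0.145 in VP RFP+ cells and had no UMI in VP RFP- cells, and 59.8% of the run 1 value came from 1 cell.

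**Figure D3:**
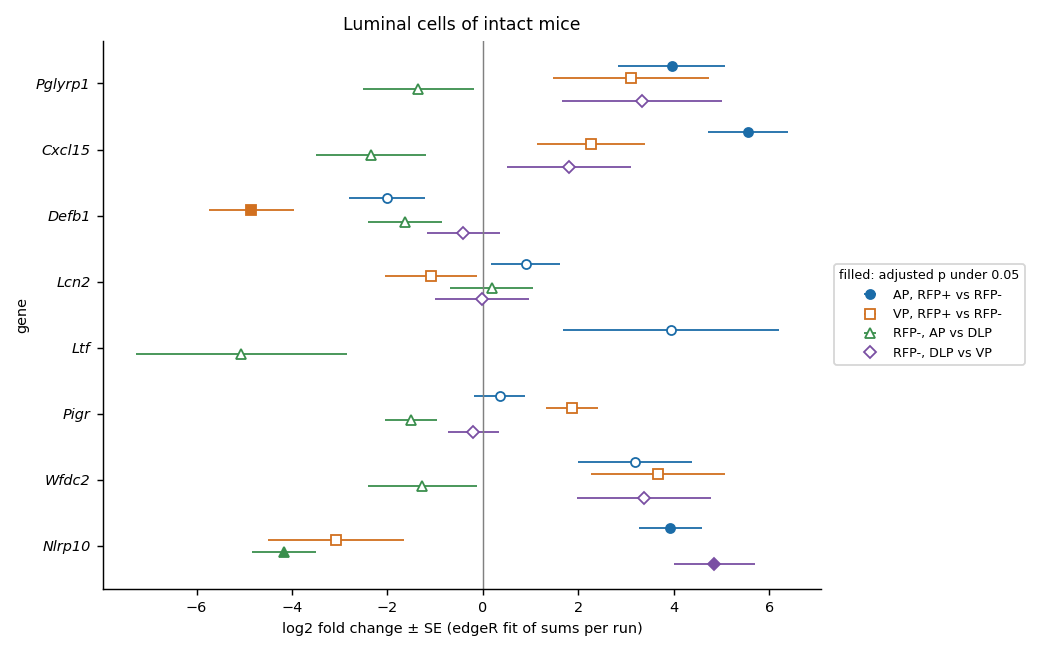
Log2 fold changes (horizontal axis, bars ± SE) of the 8 genes tested in luminal cells of intact mice, for the RFP gate in AP and VP and for RFP- cells between lobes. Filled symbols have an adjusted p under 0.05, and *Ltf* is drawn only where both groups held a UMI; the VP gate gives *Defb1* the lowest value of that contrast, -4.85.

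The difference between the AP and VP effects of the gate was tested as an interaction. *Nlrp10* passed (log2 difference 7.01 ± 1.68, edgeR's quasi-likelihood test with Benjamini-Hochberg adjustment, adjusted p = 0.0290), 1 of 8 members beside 4.19% of all genes. This call rested on the 10 VP RFP- luminal cells of run 1, in which *Nlrp10* was at 25.2 CPM with 64.3% of its UMIs in 1 cell, while runs 2 and 3 held none. It was lost without any 1 of the 3 runs, with at least 20 cells per sum and without Lum-C-like cells, where the log2 difference was 0.29. *Defb1* had a log2 difference of 2.84 ± 1.10 (edgeR adjusted p = 0.165), and with run as a block it passed (2.93 ± 0.79, edgeR adjusted p = 0.0257, with a range of 0.00315 to 0.686 over its alternatives). For *Pglyrp1*, *Cxcl15* and *Wfdc2* no difference between the lobes was detectable, and the SEs of 2.25, 1.89 and 1.77 log2 units were large.

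RFP- luminal cells differed between lobes in *Nlrp10* and *Pigr*. *Nlrp10* was at 275, 130 and 182 CPM in DLP RFP- cells of runs 1, 2 and 3, at 21.2, 7.48 and 2.88 in AP RFP- cells and at 25.2, 0 and 0 in VP RFP- cells. All DLP sums lay above those of both other lobes, while AP and VP overlapped. Without run 1, VP RFP- cells held no *Nlrp10* UMI and the AP against VP contrast passed the threshold as well. In edgeR's quasi-likelihood test the AP minus DLP log2 fold change was -4.17 ± 0.68 (adjusted p = 0.00617) and the DLP minus VP change 4.85 ± 0.85 (adjusted p = 0.00323). These were 1 of 8 members in each contrast, beside 1.08% and 6.71% of all genes. Both calls were lost in DESeq2, and without run 2 or run 3. Summed hematopoietic markers were at 104 to 296 CPM in AP and DLP and at 0.816 to 10.0 in VP RFP- luminal sums, and their part in the differences between lobes was not tested. The same order held within Lum-B-like cells, at 317, 336.5 and 343 in DLP RFP- and at 16.1, 5.53 and 3.01 in AP RFP- cells.

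*Pigr* was at 73.6, 66.7 and 10.1 in AP RFP-, 192, 152 and 87.1 in DLP RFP- and 121, 120 and 36.7 in VP RFP- luminal cells. AP lay below VP in 3 of 3 runs, at a mean CPM of 50.1 against 92.4. TMM scaling, which raised the effective library sizes of AP RFP- sums (1.22 to 1.48 times the total) and lowered those of VP, widened this difference in the fit. The log2 fold change was -1.71 ± 0.55 (edgeR's quasi-likelihood test with Benjamini-Hochberg adjustment, adjusted p = 0.0479). This was 1 of 8 members, beside 15% of all genes, so a call in this contrast was common. It was lost without run 1 or run 2, with at least 20 cells per sum, with library sizes taken without the 50 most abundant genes, without the highest Scrublet doublet scores and with the unnamed cluster counted as luminal. DLP lay above AP in 3 of 3 runs (AP minus DLP -1.51 ± 0.55, edgeR adjusted p = 0.267), and within Lum-B-like cells *Pigr* was at 162, 126 and 127 in DLP RFP- and 13.2, 19.0 and 10.5 in AP RFP- cells. DLP was above VP in CPM in 3 of 3 runs, but the fitted DLP minus VP change was -0.20, because TMM scaling raised the effective library sizes of DLP RFP- sums (1.08 to 1.48 times the total) and lowered those of VP RFP- sums (0.586 to 0.762 times).

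*Defb1* in RFP- luminal cells was at 307, 622 and 695 in AP, 275, 1180 and 3275 in DLP and 608, 1292 and 1525 in VP. AP lay below VP in 3 of 3 runs, with a log2 fold change of -2.05 ± 0.79 (edgeR adjusted p = 0.0962), and it passed with run as a block (-2.00 ± 0.55, edgeR adjusted p = 0.0148, with a range of 0.00103 to 0.537 over its alternatives). The direction depended on Lum-C-like cells: without them the log2 fold change was 0.99. Within these cells DLP and VP were alike in range, at 4121 and 6197 in DLP RFP- and 4537 and 5650 in VP RFP- cells of runs 2 and 3. *Wfdc2*, *Pglyrp1*, *Cxcl15* and *Ltf* in DLP RFP- cells varied widely between runs, and so did the share of Lum-D-like cells, which was 32.0% of the luminal cells in run 1 and 10.6% in run 2, with none in run 3. *Wfdc2* was at 467, 200 and 1.94 in these runs. In run 2, 79.6% of the *Ltf* UMIs of DLP RFP- cells (37.0 CPM) came from 1 cell. Luminal DLP RFP+ cells, present in run 3 alone, were at 130 for *Wfdc2*, 42.0 for *Pglyrp1*, 10.1 for *Cxcl15*, 943 for *Defb1* and 53.7 for *Pigr*.

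In basal cells *Defb1* and *Lcn2* were the members with high levels. *Defb1* was at 1007, 909 and 791 CPM in AP RFP+ basal cells and at 219, 421 and 205 in VP RFP+ basal cells of runs 1, 2 and 3. Each AP sum was above each VP sum, and the log2 fold change was 1.61 ± 0.29 (edgeR's quasi-likelihood test with Benjamini-Hochberg adjustment, adjusted p = 0.0207). This was 1 of the 5 members that passed the filter in basal sums (*Cxcl15*, *Defb1*, *Lcn2*, *Wfdc2* and *Nlrp10*), beside 0.786% of all 8774 genes tested. The call was lost without run 2 or without run 3. *Lcn2* went the other way, at 699, 378 and 349 in AP RFP+ and 1284, 562 and 639 in VP RFP+ basal cells, lower in AP in 3 of 3 runs. Its log2 fold change of -0.82 ± 0.43 did not pass (edgeR adjusted p = 0.671), and with run as a block it did (-0.80 ± 0.15, edgeR adjusted p = 0.00031, the lowest of its alternatives, of which the highest was 1). Run 1 was the highest of the 3 runs in both populations.

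Between RFP+ and RFP- basal cells of AP, 0 of 5 members passed, beside 0% of all genes. The contrast had 102 genes at an unadjusted p under 0.05 in edgeR and 34 in DESeq2, which also called 0. *Defb1* was at 912, 944 and 1137 and *Lcn2* at 727, 346 and 265 in AP RFP- basal cells, and both overlapped with the RFP+ values above. *Wfdc2* was at 52.8, 77.8 and 67.1 in RFP+ and 41.4, 45.3 and 41.6 in RFP- basal cells, without overlap, with a log2 fold change of 0.61 ± 0.33. VP RFP- basal cells, present in runs 2 and 3, were at 660 and 615 for *Defb1* and at 336 and 268 for *Lcn2*, so that *Defb1* was above and *Lcn2* below each VP RFP+ sum, a difference that was not tested. *Pigr*, *Pglyrp1* and *Slpi* were near 0 in basal cells, and *Ltf* had 1 UMI in all of them.

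Of 66 other defense genes in the matrices (secreted proteins, mucins and oxidases, complement, chemokines, sensors and NF-kB readouts), 34 passed the filter in luminal sums. In AP, 12 of the 34 were higher and 3 lower in RFP+ than in RFP- luminal cells, which made 15 either way, beside 23.2% of all genes, with a median log2 fold change of 0.96, against 0.01 for all genes. Calls were thus common in this contrast, and the list was not tested as a set. Of the 5 NF-kB readouts, 4 were among the 12 (*Nfkbia*, *Tnfaip3*, *Bcl3* and *Nfkbiz*), beside the same 23.2%. *Nfkbia*, an inhibitor that NF-kB itself induces, was at a mean of 337 against 120 CPM (log2 fold change 1.35 ± 0.29, edgeR adjusted p = 0.00361). *Cxcl16*, a membrane-bound chemokine, was at 66.6 against 8.89 (2.55 ± 0.36, edgeR adjusted p = 0.00015), and *Cd55*, a complement regulator, at 174 against 73.2 (1.10 ± 0.31, edgeR adjusted p = 0.0168). *Cd59a*, which blocks the membrane attack complex, was lower at 157 against 729 (-2.33 ± 0.32, edgeR adjusted p = 0.000128), and so was *Ang*, a secreted ribonuclease, at 39.9 against 98.9 (-1.41 ± 0.38, edgeR adjusted p = 0.0124). The remaining gene of the 3 that were lower was *Il18*, a cytokine, at 2.91 against 13.1, named after its values were seen. In VP 0 of 34 passed in edgeR, beside 0.305% of all genes (median 0.36, against 0.03 for all genes), and in the test of the difference between the lobes 1 of 34 did, beside 4.19%, *Cxcl16* (2.48 ± 0.53, edgeR adjusted p = 0.0168).

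Between lobes of RFP- luminal cells, 4 of the 34 were higher and 3 lower in AP than in VP, beside 15% of all genes called. In DLP against VP 4 were higher and 0 lower, beside 6.71%, and between AP and DLP 0 passed, beside 1.08%. *Ang* was at means of 98.9, 69.0 and 3.93 CPM in AP, DLP and VP RFP- cells, and *Rnase4*, a ribonuclease gene that overlaps *Ang*, so that their reads may not be fully separable, at 152, 119 and 12.6. Both passed in AP against VP (log2 fold changes 4.60 and 3.43) and in DLP against VP (4.06 and 3.06), as did *Cd59a* (2.96 and 1.90) and *Cd55* (1.90 and 1.56), the last named after its values were seen. Higher in VP than in AP were *Wfdc3*, a further gene of the whey acidic protein family (3368 against 177, log2 fold change -5.22), the neutrophil chemokine *Cxcl2* (-3.66) and the inflammasome adaptor *Pycard* (-1.31). In basal sums 26 passed the filter, and 0 were called by edgeR in either contrast.

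Over 31 intact sums of population, compartment and run, the profiles most like each member were listed as a description. The sums share libraries and mouse pools, and luminal and basal sums both enter. *Pglyrp1* went with *Psca* (Pearson's r = 0.96), *Ppp1r1b* (0.93) and *Clu* (0.87), *Wfdc2* with *Anxa1* (0.87) and *Psca* (0.84), and *Ltf* with *Ppp1r1b* (0.75), *Psca* (0.72) and *Clu* (0.71). *Psca* was thus among the 3 nearest genes for 3 members, and it is also a marker by which Lum-D-like cells were named. *Cxcl15* went with *Rad51b* (0.81), *Fam213a* (0.80) and *Klf5* (0.78), and *Nlrp10* with *Akap13*, *Ppfibp2* and *Erp44* (each 0.84). *Lcn2* went with the basal genes *Trp63*, *Lamb3* and *Dlk2* (each 0.98), *Pigr* with *Pgap2* (0.96), *Mlph* and *Oit1* (each 0.95), and *Defb1* with *Ncoa4* (0.81), *Ncam1* (0.71) and *Csrp2* (0.64). No gene passed 0.46 for *Slpi*.

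Castrated and intact cells were compared in run 2, where lobes were kept apart, with 1 sum of each and therefore no test. A ratio of at least 2 either way, with 10 or more UMIs over both sums, was found in 26 of 38 member values that had enough UMIs, 8 higher and 18 lower in castrated cells. Most luminal cells of the castrated mice were Lum-E/F-like, whereas those of intact mice were Lum-D-like in AP RFP+, Lum-B-like in AP RFP- and DLP RFP-, and Lum-A-like in VP RFP+, so ratios compare cells of different clusters. All intervals cover counting error and not the spread between mice.

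In luminal AP RFP+ cells (190 castrated, 99 intact), 5 members were past 2-fold, beside 21% of all genes. *Pglyrp1* was at 20.3 CPM in castrated and 291 in intact cells, 14.3-fold lower, *Wfdc2* at 62.7 and 869, 13.9-fold lower, and *Cxcl15* at 21.2 and 83.9, 3.96-fold lower. *Pigr* was at 49.5 and 108, and *Nlrp10* at 88.0 and 141. *Defb1* was the exception, at 398 in castrated and 53.5 in intact cells, 7.44-fold higher (95% interval 5.99 to 9.33). In AP RFP- cells (48 and 151 cells), 5 members were past 2-fold, beside 22.8% of all genes. There *Pigr* was 2.80-fold higher (187 against 66.7), *Nlrp10* 4.54-fold higher (34.0 against 7.48) and *Wfdc2* 12.7-fold lower (6.37 against 80.5), while *Defb1* was at 729 and 622.

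DLP RFP- and VP RFP+ luminal cells differed in what castrated cells held. In DLP RFP- cells (20 castrated, 66 intact), 5 members were past 2-fold and all were lower, beside 22.8% of all genes. *Defb1* was 4.95-fold lower (239 against 1180) and *Nlrp10* 7.63-fold lower (17.0 against 130). *Wfdc2*, *Ltf* and *Pglyrp1* had 0 UMIs in castrated cells. With each 0 taken as 3 counts, the intact levels exceeded the castrated ones by 31.3-fold, 5.78-fold and 4.39-fold or more. Most of the intact *Ltf* UMIs came from 1 cell, as given above, so its ratio rests mainly on that cell. Lum-D-like cells, in which these 3 genes were high, were 7 of the 66 intact cells. No luminal castrated DLP RFP- cell had that name, and the part of this difference in the ratios was not tested. In VP RFP+ cells (126 and 182 cells), 3 members were past 2-fold and all were higher, beside 47.9% of all genes. *Cxcl15* was at 82.9 CPM in castrated and 1.73 in intact cells, 48.0-fold higher (95% interval 28.4 to 87.3). *Lcn2* was 2.25-fold higher (11.4 against 5.06). *Nlrp10* was 10.6-fold higher (7.31 against 0.691), but 88.9% of its castrated UMIs came from 1 cell. *Pigr* was at 488 and 268.

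**Figure D4:**
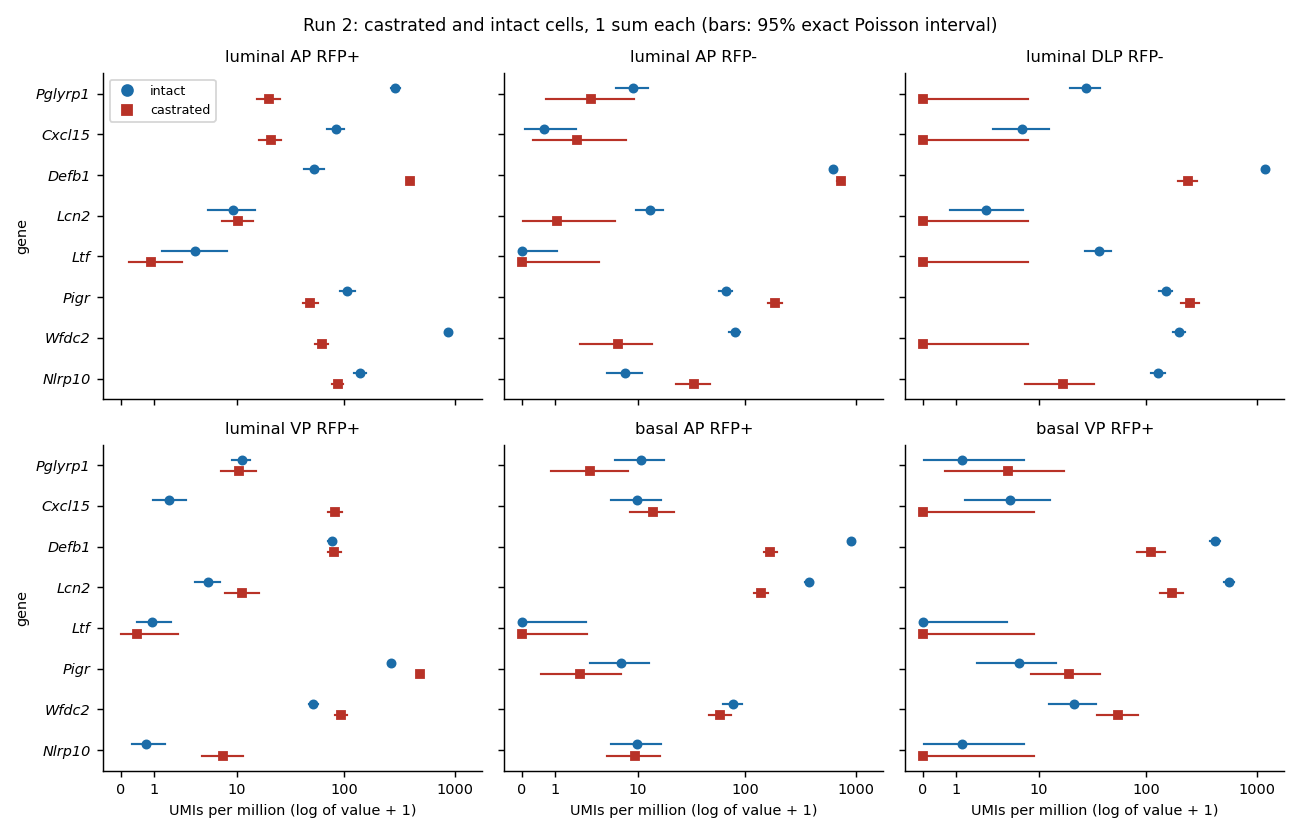
Castrated (squares) and intact (circles) levels of 8 genes in run 2, in CPM on a logarithmic scale of the value plus 1 (horizontal axis), for 4 luminal and 2 basal populations. Bars are 95% exact Poisson intervals of 1 sum each; *Cxcl15* lies to the left of the intact value in luminal AP RFP+ cells (21.2 against 83.9) and to its right in luminal VP RFP+ cells (82.9 against 1.73).

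In basal cells both leading members were lower in castrated than in intact cells of run 2. Over all runs castrated basal-like cells were shallower, with a median of 4930 UMIs against 9082 in intact ones. Their spread over the basal-like clusters was not compared. In AP RFP+ basal cells (156 castrated, 113 intact), *Defb1* was at 170 against 909, 5.35-fold lower, and *Lcn2* at 140 against 378, 2.70-fold lower, and 4 members were past 2-fold, beside 17.9% of all genes. In VP RFP+ basal cells (79 and 75 cells), *Defb1* was 3.75-fold lower (112 against 421) and *Lcn2* 3.24-fold lower (173 against 562). *Wfdc2* was 2.59-fold higher there (56.1 against 21.7, 95% interval 1.32 to 5.16), and 4 members were past 2-fold, beside 23.1% of all genes. Summed macrophage markers were at 9.76 to 224 CPM in castrated basal sums and at 0 to 10.7 in intact ones, and their part in these values was not tested.

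Within clusters of run 2, 33 castrated Lum-D-like cells were at 1011 CPM for *Wfdc2*, 121 for *Pglyrp1*, 414.5 for *Cxcl15*, 33.3 for *Nlrp10* and 229.9 for *Pigr*. The 96 intact Lum-D-like cells were at 1989, 558, 135, 216 and 81.0 for the same genes. Castrated Lum-D-like cells thus had lower *Wfdc2*, *Pglyrp1* and *Nlrp10* and higher *Cxcl15* and *Pigr* than intact ones in these sums, which were not tested. The 2 sums also differed in lobe. Of the 96 intact cells, 80 were AP RFP+ cells. The 33 castrated ones were 15 AP RFP+, 12 VP RFP+ and 6 DLP RFP+ cells. Lobe and treatment cannot be told apart in these values. The Lum-E/F-like cells formed 2 large clusters of castrated cells that differed in these genes. One of 332 cells was at 428 for *Defb1*, 154 for *Wfdc2*, 135 for *Lcn2*, 121 for *Pigr*, 104 for *Nlrp10* and 12.1 for *Cxcl15*. The other, of 113 cells and led by *Ang4*, *Ang5*, *Ang2*, *Crym* and *Cxcl5*, was at 474 for *Pigr*, 120 for *Defb1*, 68.6 for *Cxcl15*, 13.5 for *Nlrp10* and 6.76 for *Lcn2*. Castrated DLP RFP+ luminal cells (143), for which run 2 held no intact counterpart, were at 316 for *Wfdc2*, 262 for *Lcn2*, 238 for *Pigr* and 120 for *Defb1*. Their *Ltf* (30.5) and *Slpi* (13.9) rested to 48.1% and 91.4% on 1 cell each.

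In the explants, *Wfdc2* and *Cxcl15* were lower and *Defb1* and *Lcn2* higher in prostatic-like cells at day 6 than at day 0. *Wfdc2* was at 300.4, 397, 227 and 46.2 CPM at days 0, 1, 3 and 6 (463, 437, 932 and 1961 cells), 6.51-fold lower at day 6 than at day 0. *Cxcl15* was at 67.5, 103, 46.6 and 20.1, 3.36-fold lower. *Defb1* was at 3.88, 1.35, 16.5 and 22.7, 5.84-fold higher at day 6 (95% interval 4.33 to 8.05). *Lcn2* was at 0.0844, 0.387, 7.60 and 30.7, and with 1 UMI at day 0 the ratio was 364 with a counting interval of 65.2 to 14395. Over all assigned cells, not prostatic-like cells alone, the *Lcn2* ratio was 26.3 (16.8 to 43.9), and without the highest 6% of Scrublet scores, where day 0 held no UMI, it was at least 122 by the 3 counts that a count of 0 allows. These 4 members were past 2-fold, beside 21.5% of all genes, and each day was 1 pool in 1 library, so no test was made.

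**Figure D5:**
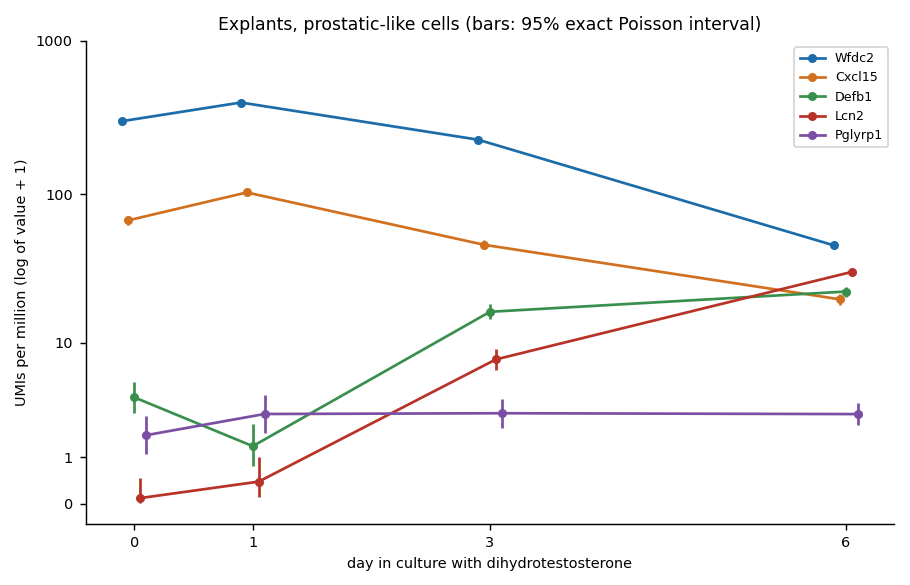
Level of 5 genes in prostatic-like explant cells (vertical axis, CPM on a logarithmic scale of the value plus 1) by day of culture with dihydrotestosterone. Bars are 95% exact Poisson intervals of 1 sum per day; *Wfdc2* is highest at day 1 (397) and *Lcn2* at day 6 (30.7).

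*Pglyrp1* was at 1.77, 2.81, 2.85 and 2.80 in prostatic-like cells over the 4 days, within 2-fold. Over all assigned cells *Pglyrp1* was at 1.62, 4.25, 7.95 and 5.52, 3.41-fold higher at day 6 than at day 0 (counting interval 2.26 to 5.35). *Ltf* had no UMI in prostatic-like cells at any day, which allows up to 0.253, 0.290, 0.178 and 0.102 CPM. *Pigr* had 1 UMI, *Slpi* 2 and *Nlrp10* 10 in all prostatic-like cells. The share of cells with a *Wfdc2* UMI went from 91.1% at day 0 to 25.5% at day 6, that of *Cxcl15* from 65.2% to 19.7%, and that of *Lcn2* from 0.216% to 19.1%, without thinning. At day 6 the genes were spread unequally over the prostatic-like cells. The 570 Krt5/Krt14-high-like cells were at 141 for *Wfdc2*, 56.2 for *Defb1*, 35.8 for *Cxcl15* and 13.5 for *Lcn2*, and the 967 Vcan-bud-like cells at 11.4 for *Wfdc2*, 14.1 for *Defb1* and 24.7 for *Lcn2*. *Lcn2* was at 54.1 in the 154 Krt4/Psca-like cells.

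*Wfdc2* was higher in explant cells that were not named prostatic-like. Mesonephric-like cells were at 1068, 2321, 3259 and 472 CPM at days 0, 1, 3 and 6, and urothelium-like cells at 912, 966 and 806.5 at days 1, 3 and 6. An unnamed class was led by *Psca*, *Nupr1*, *Spink5*, *Krt4*, *Ly6d* and *Krt6a*. The paper names *Krt4*, *Psca*, *Ly6d* and *Nupr1* for the embryonic prostatic cluster that it likens to adult Lum-D cells. Whether this class holds prostatic cells was not tested. It was at 1431, 676.5 and 260 for *Wfdc2* at days 1, 3 and 6, and at 23.9, 49.1 and 66.5 for *Pglyrp1*. *Pglyrp1* in that class was thus above its level in prostatic-like cells at each of the 3 days.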

How the data were processed

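Droplet-based libraries of 3 adult runs and 1 explant library were analysed. The authors counted UMIs of 31053 genes per cell with Cell Ranger 3.1.0 against GRCm38 (mm10), per the submitters' processing notes, which also name Seurat 3.1.5, and deposited raw counts with the MULTI-seq barcode counts. No normalization had been applied. Cells were kept at 750 to 7500 genes and under 10% mitochondrial UMIs (explants: over 1000 genes, under 7.5%), and were assigned where 1 barcode passed the thresholds of the study. The 2612, 6034, 3028 and 7474 barcodes became 824, 2194, 1673 and 5198 assigned cells. The limit of 7500 was read as genes. The adult runs were integrated with Seurat 5.3.0 under R 4.3.3 (3000 variable genes, 2000 anchor genes), and clusters were made on 50 principal components and 20 neighbours, always without the 9 members. Clusters took the name with the highest marker score, except 4 left unnamed: an adult epithelial and an explant cluster whose leading genes went against that name, and 2 explant subclusters with scores below 0. Scrublet, in scanpy 1.11.5, called 8, 8, 4 and 4 doublets, too few to have worked, so cells with several barcodes were removed and the highest 6% of scores served as an alternative.

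UMI counts were summed per run, lobe, gate and compartment (at least 10 cells) and fitted with edgeR 4.0.16 (TMM, filterByExpr, quasi-likelihood test, Benjamini-Hochberg over all genes, threshold 0.05), in 1 fit for intact luminal and 1 for intact basal sums. SEs were obtained from the fold change and the root of the F value. Runs are the replicates, each a pool of mice. Populations of 1 run came from the same pools, so runs pair the samples. Deviations from group means correlated within runs at 0.418, 0.333 and 0.297 for luminal AP, 0.278, 0.296 and 0.204 for luminal VP and 0.632, 0.374 and 0.415 for basal AP, and the block for run is given beside a result where it changed the call. Castrated cells of run 1, whose lobes were pooled, were not compared. Values with 1 sum per group have exact Poisson 95% intervals and a floor of 3 counts, which cover counting error only. Clusters and likeness (Pearson's r of log2(CPM + 1), genes with a mean of at least 20) are descriptions. The scripts for the tests were tested on simulated data with 200 changed genes.

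The members, the list of other defense genes, the markers and the tests were chosen with earlier results of these data known. Genes named are the 9 members, the 3 genes most like each, and of the other defense genes those past the threshold with the 3 largest changes in each direction and a mean of at least 20 CPM. A gene named by this rule is not reported here. Alternatives were DESeq2 1.42.0, library sizes that leave out the 50 most abundant genes, no filter on counts, the block, each run left out, at least 20 cells per sum, only the populations compared, 7500 as a limit on UMIs, Scrublet, and no Lum-D-like cells, and for explants all assigned cells. Chosen after seeing the data were 4: no Lum-C-like cells, the unnamed cluster as luminal, no basal-like clusters led by immune genes, and run 3 endothelial-like cells as basal. Promoters and motifs came from RefSeq tables of GRCm38.p6, which held 7 of the 9 members. Other computations used Python 3.11.15 with numpy 2.4.6, scipy 1.17.1, pandas 2.3.3 and matplotlib 3.10.9.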

Additional observations from a re-analysis of the deposited data

Results flagged for a closer look

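*Nlrp10* and, of the other defense genes, *Cxcl16* were set apart by the test of the difference between the AP and VP effects of the RFP gate in luminal cells, with log2 differences of 7.01 and 2.48. The *Nlrp10* value rested on the 10 VP RFP- cells of run 1, and the call was lost without any 1 of the 3 runs.

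Ratios of castrated to intact cells in run 2 went in opposite directions between populations for 6 members. The share of all genes with such opposite ratios is not given here. Within a pair of sums, 17.9% to 47.9% of all genes were past 2-fold, so nothing is read from the count of 6. *Cxcl15* had a ratio of 48.0 in luminal VP RFP+ and 0.253 in luminal AP RFP+ cells. *Defb1* had a ratio of 7.44 in luminal and 0.187 in basal AP RFP+ cells. *Pigr* had 2.80 in AP RFP- and 0.459 in AP RFP+ luminal cells. *Wfdc2* had 2.59 in basal VP RFP+ and 0.0320 in luminal DLP RFP- cells, the latter with 0 castrated UMIs taken at 3 counts. *Lcn2* had 2.25 in luminal VP RFP+ and 0.0802 in luminal AP RFP- cells, the latter with 1 castrated UMI (95% interval 0.00199 to 0.470). *Nlrp10* had 10.6 in luminal VP RFP+, mostly from 1 cell, and 0.131 in luminal DLP RFP- cells. With 1 sum per group these differences between populations were not tested.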

How the results depend on the processing

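The number of members past the threshold moved by more than 1.5 times under these alternatives, and unless stated the cause was not tested. Without the low-count filter, where all 9 members were tested, it was 6 for the AP gate (3 in the fit reported), 4 for the VP gate (1), 2 for the difference between the gates (1), 3 for AP against VP (1), 4 for AP against DLP (1) and 4 for DLP against VP (1). With run as a block, the paired analysis, it was 5 for the AP gate, 2 for the VP gate, 2 for the difference, 2 for AP against VP and 2 for basal AP against VP. The genes it added are given with the results, and the block changed no other call of a member. With each run left out it was 2 to 5 for the AP gate, 0 to 1 for the VP gate, AP against VP, AP against DLP, DLP against VP and basal AP against VP, and 0 to 0 for the difference. With DESeq2 it was 0 for AP against DLP and 0 for DLP against VP. With library sizes without the 50 most abundant genes it was 0 for AP against VP, and with the unnamed cluster as luminal also 0. With only the populations compared it was 5 for the AP gate and 2 for AP against VP. Without the top 6% of Scrublet scores it was 5 for the AP gate and 0 for the difference, and with at least 20 cells per sum, which drops the VP RFP- sum of run 1, 0 for the difference. Without Lum-D-like cells it was 0 for the AP gate and 0 for the difference, where 14 and 6 of all 9897 genes were called. Without Lum-C-like cells it was 0 for the VP gate, where 0 of all 10536 genes were called, 0 for the difference and 2 for AP against VP. With 7500 as a limit on UMIs, which leaves few luminal cells, it was 0 for AP against DLP and 0 for basal AP against VP, and 10 in place of 26 members were past 2-fold after castration. The luminal contrasts with VP could not be fitted under that limit. With all assigned explant cells, 7 in place of 4 members were past 2-fold.

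Directions turned in values that were not past the threshold. For *Pglyrp1* in the difference between the gates (0.85) they were -5.56 with at least 20 cells per sum, -5.49 without Lum-C-like cells, -3.13 without Lum-D-like cells, -5.14 without the top Scrublet scores and -3.07 to 1.60 with each run left out. *Ltf* (-4.20) was 1.49 without Lum-D-like cells and -5.47 to 2.07 with each run left out, *Wfdc2* (-0.50) 0.037 in DESeq2, *Lcn2* (1.98) -0.017 without the top Scrublet scores, and *Nlrp10*, called in the fit reported (7.01), -1.30 without Lum-D-like cells. For *Nlrp10* in the VP gate (-3.08) they were 3.71 with at least 20 cells, 3.63 without Lum-C-like, 3.39 without Lum-D-like cells, 3.64 without the top Scrublet scores and -6.01 to 3.94 with each run left out, and for AP against VP (0.68) -0.51 in DESeq2 and -0.54 to 6.79. *Defb1* turned without Lum-C-like cells to 0.99 for AP against VP and 1.18 for DLP against VP. With 7500 as a limit on UMIs, AP against DLP became 2.69 for *Pglyrp1* and 2.49 for *Wfdc2*, and the castrated to intact ratio of *Pigr* in basal VP RFP+ cells 0.397. Luminal *Lcn2*, near 0 counts, was for AP against DLP (0.18) -0.021 with the replicate block, -0.77 without the top Scrublet scores and -0.47 to 2.81 with each run left out, for AP against VP (0.16) -0.30 without Lum-C-like cells and -0.16 to 0.99, for DLP against VP (-0.024) 0.054 with the block, 0.017 with the unnamed cluster, 1.69 without the top Scrublet scores and -2.75 to 1.36, and for the VP gate 0.56 without the top Scrublet scores. In basal AP cells, with each run left out, *Defb1* ranged from -0.31 to 0.028 and *Lcn2* from -0.0027 to 0.25.

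Over all genes, calls ranged over the alternatives from 14 to 3439 for the AP gate (2436 reported), 0 to 134 for the VP gate (32), 5 to 1180 for the difference (439), 490 to 2262 for AP against VP (1575), 0 to 348 for AP against DLP (113), 110 to 1370 for DLP against VP (703), 0 to 14 for the basal AP gate (0) and 0 to 556 for basal AP against VP (69). Of the other values, 673 kept their direction and side of the threshold or stayed within their interval, 33 passed it newly, 30 lost it and 17 ratios without a test moved beyond their interval in the same direction. Among these, the castrated to intact ratio of *Cxcl15* in luminal VP RFP+ cells was 23.4 in place of 48.0 with library sizes without the 50 most abundant genes, and the day 6 to day 0 ratio of *Wfdc2* 0.282 in place of 0.154 with all assigned explant cells. Some VP RFP- and DLP RFP- luminal sums held 10 to 25 cells, which limits their precision.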
